A study of Bos taurus with 15 samples.

Results

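The transcripts of 10 immediate early genes were followed in bovine blastocysts cultured with or without oviductal extracellular vesicles (oEVs). The genes were FOS, FOSL2, JUN, JUNB, JUND, ATF3, EGR1, IER2, IER3 and MYC. They were taken by symbol and gene identifier, and all 10 were in the filtered table of 10832 genes, of 34773 genes counted. The rule is by symbol and uses no threshold, although it was set with earlier results of these libraries known.

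Immediate early genes are transcribed within minutes of a growth factor, serum or stress signal without the need for protein synthesis, and their mRNAs are usually short-lived because AU-rich elements mark them for decay. FOS and JUN proteins pair through leucine zippers to form the transcription factor AP-1, which binds DNA only as a dimer, and JUND differs from JUN and JUNB in that it is commonly expressed in resting cells. In the blastocyst, the ERK kinases, a main route to these genes, take part in setting the fates of the inner cell mass and of the trophectoderm, the outer layer that gives rise to the fetal part of the placenta.

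The samples were pools of 8 to 14 embryos of Bos taurus produced in vitro and collected as blastocysts on day 7 according to the labels. Control embryos (Co) were cultured without oEVs, FeEV-treated embryos with freshly isolated vesicles, and FoEV-treated embryos with vesicles that had been frozen and thawed. All vesicles came from postovulatory oviducts, and the fresh and frozen ones were portions of the same collections. Each treatment had 5 libraries, each made from 1 ng of total RNA of 1 pool, so that a value is a mean over whole embryos, and fewer cells of a type and less RNA per cell cannot be told apart. Libraries were prepared from the pools with the best RNA quality and concentration, and the remaining pools were not analysed here.

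Library totals ran from 2136713 to 4058887 reads, and every FoEV library (3392613 to 4058887) exceeded every Co library (2571558 to 2977004). Trophectoderm markers, of which 7 of 8 listed genes were matched, summed to 6240 to 8106 CPM (counts scaled to library size) in Co, 6609 to 10090 in FeEV and 7949 to 11990 in FoEV. The keratin genes KRT8 and KRT18 carried much of this sum, with median counts of 14113 and 9338 per library. GATA3 and CDX2 had median counts of 697 and 106. All 7 markers had a higher estimate in FoEV-treated than in Co embryos, as had 5665 of all 10832 genes. An unadjusted p under 0.05 was found for 4 of the 7, against 8.18% of all genes as higher. All 7 were also higher in FeEV-treated than in Co embryos, as were 5528 of all 10832 genes. None of the 7 had such a p there, against 1.83% of all genes as higher. Inner cell mass markers summed to 246 to 303 CPM in Co, 238 to 306 in FeEV and 214 to 299 in FoEV, and hypoblast markers to 5702 to 9359, 5609 to 8039 and 4910 to 7114 CPM. Of the 3 inner cell mass markers tested, NANOG was lower at an unadjusted p under 0.05 in both oEV treatments vs. Co. Its log2 fold changes were -0.84 ± 0.26 in FoEV and -0.62 ± 0.26 in FeEV treatment vs. Co. Of all genes, 6.88% and 2.32% were lower at such a p in these comparisons. In the same order, POU5F1 had 0.21 ± 0.11 and 0.13 ± 0.11 and SOX2 -0.03 ± 0.25 and -0.32 ± 0.26. Of the 4 hypoblast markers tested, 3 were lower and 1 higher in FoEV treatment vs. Co, with log2 fold changes from -0.46 to 0.32. Only FN1, with -0.29 ± 0.14, had an unadjusted p under 0.05 there. In FeEV treatment vs. Co 3 were also lower and 1 higher, from -0.19 to 0.09, and none had such a p. Oviduct epithelium markers stayed between 4.88 and 13.1 CPM. OVGP1 was at 0 to 6, FOXJ1 at 0 to 4 and PAX8 at 12 to 46 counts per library. Cumulus and granulosa cell markers summed to 23.2 to 47.1 CPM. PTX3 was at 0 to 1 and AMH at 0 to 2 counts, but FSHR at 14 to 43 and CYP19A1 at 36 to 140. Of the 2 tested, 1 was lower in FeEV treatment vs. Co at an unadjusted p under 0.05 (log2 fold change -0.55), against 2.32% of all genes. The other had 0.23. Leukocyte markers summed to 2.16 to 6.08 CPM, with PTPRC at 0 to 2 and CD68 at 5 to 22 counts. The part of library depth and of cell composition in the results given next was not tested.

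Levels are given in CPM after scaling by TMM factors, and differences as log2 fold changes with the SE from 1 edgeR fit over the 15 libraries. P-values of the quasi-likelihood F test were adjusted over all 10832 genes by Benjamini-Hochberg, and the unadjusted values are given only as a measure of how far a gene stood from its spread in that fit. None of the 10 members had an adjusted p under 0.05 in any of the 3 comparisons. Between 17 and 314 reads were counted on a member in a library.

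FOS, the AP-1 subunit with the best known transient induction, was the member with the largest difference from Co in both oEV treatments. It stood at 60.5, 27.7, 46.1, 46.6 and 66.1 CPM in Co replicates 1 to 5. The FeEV libraries had 39.3, 30.5, 28.2, 27.8 and 16.8 CPM, and the FoEV libraries 46.5, 32.3, 26.7, 28.4 and 25.4 CPM. The Co libraries were thus higher than every FeEV library except for Co replicate 2, which lay inside the range of both oEV treatments, and Co replicate 3 was below FoEV replicate 1. Its mean level over 5 libraries was 49.4 CPM ± 14.9 (SD) in Co, against 28.5 ± 8.06 under FeEV and 31.9 ± 8.61 under FoEV treatment.

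FOS was lower in FeEV-treated than in Co embryos by a log2 fold change of -0.79 ± 0.24 (SE, 95% interval -1.30 to -0.28), with unadjusted p = 0.00457 and adjusted p = 1.00 in the edgeR quasi-likelihood test. The adjusted p was 1.00 for every member in this comparison. FoEV treatment vs. Co gave a log2 fold change of -0.62 ± 0.24 (95% interval -1.12 to -0.12, unadjusted p = 0.0176, adjusted p = 0.230 in the same edgeR test). Both comparisons use the same Co libraries, so they are not independent of each other. From these same libraries, the study listed FOS among the genes lower than Co in both oEV treatments. For FeEV treatment vs. Co it used a threshold on the likelihood ratio in place of an adjusted p. In the fits made here, the call for FOS depended on the fit. With the robust dispersion and likelihood ratio test of edgeR named in the methods, the adjusted p for FoEV treatment vs. Co was 0.0202 at a log2 fold change of -0.74, and with no filter on low counts it was 0.00876 in the quasi-likelihood test of edgeR. For FeEV treatment vs. Co the likelihood ratio test gave -0.82 (unadjusted p = 7.2e-05, adjusted p = 0.0650). With no filter the adjusted p was 0.0017 in the quasi-likelihood test. Without Co replicate 5 the estimate for FoEV treatment vs. Co was -0.49 (unadjusted p = 0.0543 in the edgeR fit). FoEV- and FeEV-treated embryos differed by 0.17 ± 0.24 (95% interval -0.34 to 0.68, edgeR, unadjusted p = 0.491).

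FOSL2 encodes a FOS family protein that is induced later than FOS and lasts longer. It was measured at 45.9, 42.5, 43.5, 52.6 and 50.5 CPM in Co, and at 41.1, 41.2, 41.3, 40.1 and 31.8 CPM in FeEV. In FoEV it was measured at 39.1, 36.3, 35.3, 50.1 and 39.5 CPM. All Co libraries lay above all FeEV libraries, although the gap between the nearest values was about 1 CPM, and FoEV replicate 4 lay among the Co values. For FeEV treatment vs. Co the log2 fold change of FOSL2 was -0.27 ± 0.12 (edgeR, unadjusted p = 0.0380), and groups apart in this direction were found for 0.415% of all genes. Without Co replicate 4 the unadjusted p of this difference in edgeR was 0.0975, without Co replicate 5 it was 0.0798, and without FeEV replicate 5 it was 0.125. FoEV treatment vs. Co gave -0.23 ± 0.12 (edgeR, unadjusted p = 0.0629).

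**Figure D1:**
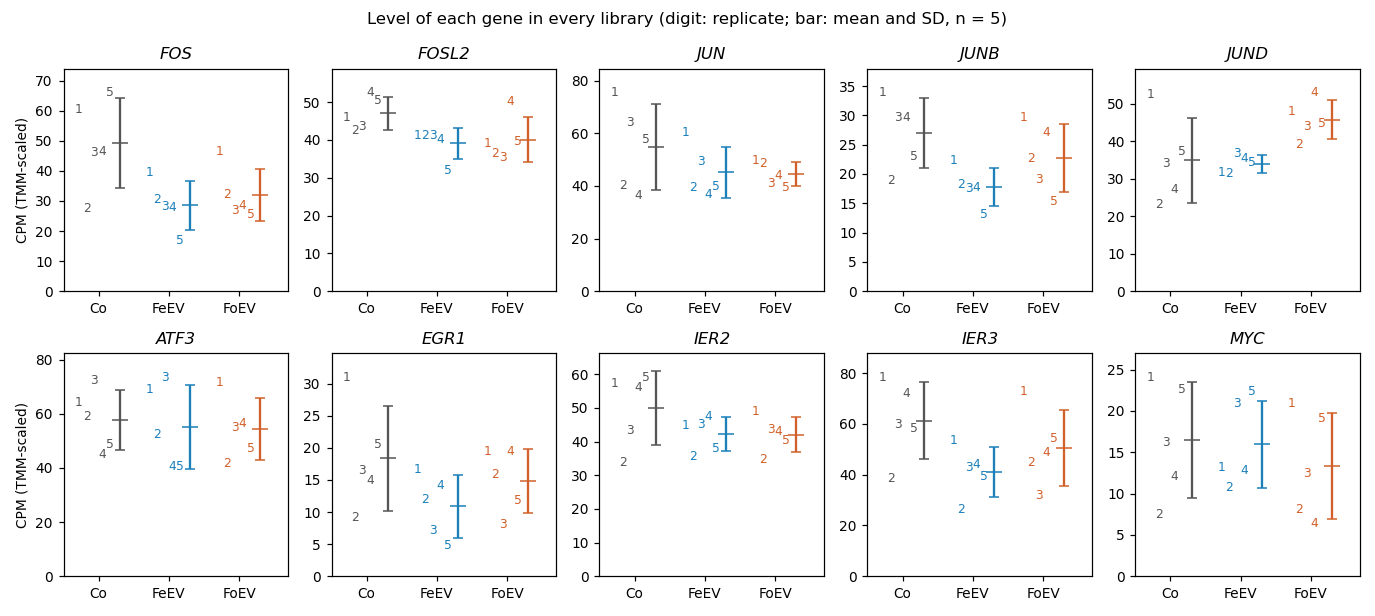
Level in CPM, scaled by TMM factors, of each of the 10 genes in every library, with 1 panel per gene and a vertical axis from 0. Digits are replicate numbers of the Co, FeEV and FoEV libraries, and bars show the mean and SD (n = 5). FOS lies between 16.8 and 39.3 CPM in FeEV and between 27.7 and 66.1 CPM in Co, and JUND lies between 39.1 and 53.1 CPM in FoEV.

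Of the JUN family, JUN is the partner of FOS in the classical AP-1 dimer. JUN was measured at 75.5, 40.1, 64.2, 36.5 and 57.5 CPM in Co, while the FeEV libraries ranged from 36.9 to 60.2 CPM with a median of 39.9. The FoEV libraries ranged from 39.5 to 49.6 CPM with a median of 44.1. The Co libraries spread over both sides of the oEV libraries. The log2 fold change of JUN was -0.30 ± 0.17 in FoEV treatment vs. Co (edgeR, unadjusted p = 0.0982) and -0.27 ± 0.18 in FeEV treatment vs. Co (edgeR, unadjusted p = 0.135). Without Co replicate 1, the highest library, these were -0.16 and -0.13.

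JUNB often counteracts JUN on growth genes. It was measured at 33.9, 18.9, 29.7, 29.7 and 23.0 CPM in Co, and at 22.4, 18.2, 17.5, 17.8 and 13.1 CPM in FeEV. The FoEV libraries had 29.6, 22.7, 19.0, 27.0 and 15.3 CPM. Only Co replicate 2 fell within the FeEV range, and FeEV was the higher library in 1 of the 25 pairs of a FeEV and a Co library. The log2 fold change of JUNB was -0.60 ± 0.20 in FeEV treatment vs. Co (95% interval -1.01 to -0.20, edgeR, unadjusted p = 0.00525). It was -0.25 ± 0.19 in FoEV treatment vs. Co (edgeR, unadjusted p = 0.199), and FoEV- and FeEV-treated embryos differed by 0.36 ± 0.19 (95% interval -0.05 to 0.76, edgeR, unadjusted p = 0.0793).

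JUND, the family member usually present without stimulation, was the member with a higher estimate in FoEV-treated embryos than in both other groups. The FoEV libraries had 47.9, 39.1, 44.1, 53.1 and 44.7 CPM, and the FeEV libraries 31.6, 31.6, 36.9, 35.5 and 34.4 CPM. The Co libraries had 52.5, 23.3, 34.2, 27.3 and 37.3 CPM. Every FoEV library was above every FeEV library, whereas Co replicate 1 was above all FoEV libraries but replicate 4. Of the 10 members, JUND in this comparison was the only gene with a FoEV group wholly above the FeEV group, against 0.757% of all genes.

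Between FoEV and FeEV treatment the log2 fold change of JUND was 0.43 ± 0.16 (95% interval 0.10 to 0.76, unadjusted p = 0.0128, adjusted p = 0.497 in edgeR). Leaving out each library in turn gave 0.37 to 0.48 with unadjusted p values up to 0.0356 in edgeR. Against Co, JUND was higher in FoEV-treated embryos by 0.39 ± 0.16 (95% interval 0.06 to 0.72, edgeR, unadjusted p = 0.0223, adjusted p = 0.243). This difference depended on single libraries, as it was 0.58 without Co replicate 1 and 0.27 without Co replicate 2 (edgeR, unadjusted p = 0.000386 and 0.0844). Without Co replicate 4 or FoEV replicate 4 the unadjusted p in edgeR was 0.0699 or 0.0577. FeEV-treated and Co embryos had nearly the same mean level, 34.0 ± 2.38 and 34.9 ± 11.3 CPM, with a log2 fold change of -0.04 ± 0.16 (95% interval -0.38 to 0.30).

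FOS and JUND thus had estimates of opposite sign in FoEV treatment vs. Co, and the ratio of their counts within a library was computed after these values were seen. For each FOS read there were 0.868, 0.842, 0.741, 0.586 and 0.565 JUND reads in Co replicates 1 to 5. There were 1.03, 1.21, 1.65, 1.87 and 1.76 in the FoEV libraries and 0.803, 1.04, 1.31, 1.28 and 2.05 in the FeEV libraries. Every FoEV library was above every Co library, and FeEV replicate 1 lay within the Co range. The ratio within a library does not depend on the scaling between libraries, and it carries the unlike lengths of the transcripts, so its size says nothing of which gene was more abundant. Among all genes, 5.20% had a ratio to FOS that put all FoEV libraries above all Co libraries, and JUND had such a ratio to 1.62% of all genes. No test was made on the ratio, since its genes were picked for their differences.

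**Figure D2:**
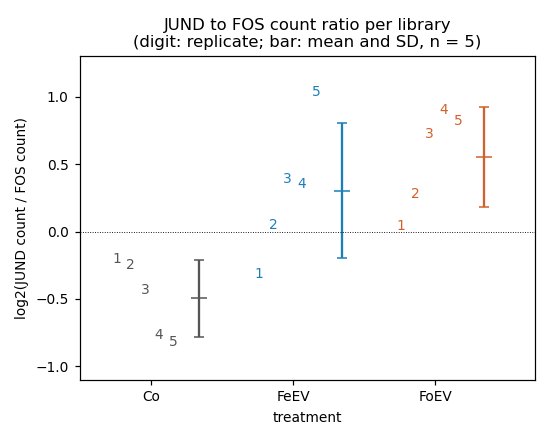
Log2 ratio of JUND counts to FOS counts in each library by treatment, with digits for replicate numbers and bars for the mean and SD (n = 5). The mean is -0.50 ± 0.29 in Co, 0.30 ± 0.50 in FeEV and 0.55 ± 0.37 in FoEV, and all 5 FoEV libraries lie above all 5 Co libraries.

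ATF3 encodes a stress-induced leucine zipper protein that pairs with JUN proteins. The mean CPM over 5 libraries was 57.8 ± 11.1 (SD) for Co, 55.2 ± 15.5 for FeEV and 54.4 ± 11.3 for FoEV, and the 3 groups overlapped widely, with a lowest library of 40.5 and a highest of 73.5 CPM, both in FeEV. The log2 fold change of ATF3 was -0.09 ± 0.18 in FoEV treatment vs. Co (95% interval -0.48 to 0.29) and -0.07 ± 0.18 in FeEV treatment vs. Co (95% interval -0.45 to 0.32). MYC, a helix-loop-helix transcription factor of growth and ribosome production, had 24.1, 7.42, 16.1, 12.0 and 22.6 CPM in Co. It ranged from 10.8 to 22.3 CPM in FeEV and from 6.34 to 20.8 CPM in FoEV. The wide spread left an interval of -1.02 to 0.47 for the log2 fold change of MYC in FoEV treatment vs. Co and of -0.77 to 0.73 in FeEV treatment vs. Co.

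EGR1, a zinc finger factor induced through serum response elements, was measured at 31.0, 9.11, 16.4, 14.9 and 20.5 CPM in Co. The FeEV libraries had 16.7, 11.9, 7.19, 14.1 and 4.75 CPM, and the FoEV libraries 19.4, 15.9, 7.99, 19.4 and 11.7 CPM. Co replicate 1 was the highest of all libraries and FeEV replicate 5 the lowest. The log2 fold change of EGR1 was -0.76 ± 0.36 in FeEV treatment vs. Co (edgeR, unadjusted p = 0.0478), and without Co replicate 1 it was -0.49 (edgeR, unadjusted p = 0.170). The unadjusted p was also above 0.05 without Co replicate 3 or 5, FeEV replicate 2, 3 or 5, or FoEV replicate 2, 4 or 5. FoEV treatment vs. Co gave -0.30 ± 0.34 (edgeR, unadjusted p = 0.390), and without Co replicate 1 it was -0.03.

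IER3 encodes a small membrane-associated protein of cell survival. It was measured at 78.4, 38.5, 59.7, 71.8 and 58.3 CPM in Co, at 53.3, 26.4, 42.9, 44.2 and 39.1 CPM in FeEV, and at 72.7, 44.7, 31.7, 48.7 and 54.2 CPM in FoEV. All Co libraries but replicate 2 were above all FeEV libraries. The log2 fold change of IER3 was -0.57 ± 0.22 in FeEV treatment vs. Co (edgeR, unadjusted p = 0.0218) and -0.28 ± 0.22 in FoEV treatment vs. Co (edgeR, unadjusted p = 0.225). The unadjusted p in edgeR for FeEV treatment vs. Co was 0.0643 without Co replicate 1, 0.0515 without Co replicate 4 and 0.0540 without FeEV replicate 2. IER2, an early response nuclear protein, averaged 49.9 CPM ± 11.0 (SD, n = 5) in Co embryos, and 42.2 ± 5.04 and 42.1 ± 5.21 after FeEV and FoEV treatment. Its log2 fold change was -0.24 ± 0.14 in both FeEV and FoEV treatment vs. Co (edgeR, unadjusted p = 0.111 and unadjusted p = 0.106), and 0.00 ± 0.14 between the oEV treatments.

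Most of the 10 members had lower estimates in the oEV treatments than in Co, with JUND as the exception in FoEV treatment. In FeEV treatment vs. Co, all 10 had a negative log2 fold change, against 49.0% of all genes, with a median of -0.27 against 0.00 over all genes. Unadjusted p values under 0.05 were found for FOS, JUNB, IER3, FOSL2 and EGR1, each lower in FeEV. That is 5 of 10 members, against 4.15% of all genes and 2.32% in this direction, and the adjusted threshold was passed by none of them and by 0% of all genes. The smallest adjusted p of the comparison was 0.382 over all genes.

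For FoEV treatment vs. Co, 9 of 10 members had a negative log2 fold change, against 47.7% of all genes, and the median was -0.26 against 0.01. FOS and JUND had unadjusted p values under 0.05, which 15.1% of all genes had, 6.88% as lower and 8.18% as higher. The share of 2 in 10 members is near this background. The groups did not overlap for 2.6% of all genes and for none of the members, and an adjusted p under 0.05 was found for 0.00923% of all genes, which is 1 gene. Between the oEV treatments, 7 of 10 members had a positive log2 fold change, against 51.8% of all genes, with a median of 0.10 against 0.01. Only JUND had an unadjusted p under 0.05, against 8.52% of all genes and 4.83% as higher, and no gene passed the adjusted threshold (0%). These counts are no test, because the members vary together between libraries, as described next, and the comparisons share libraries.

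**Figure D3:**
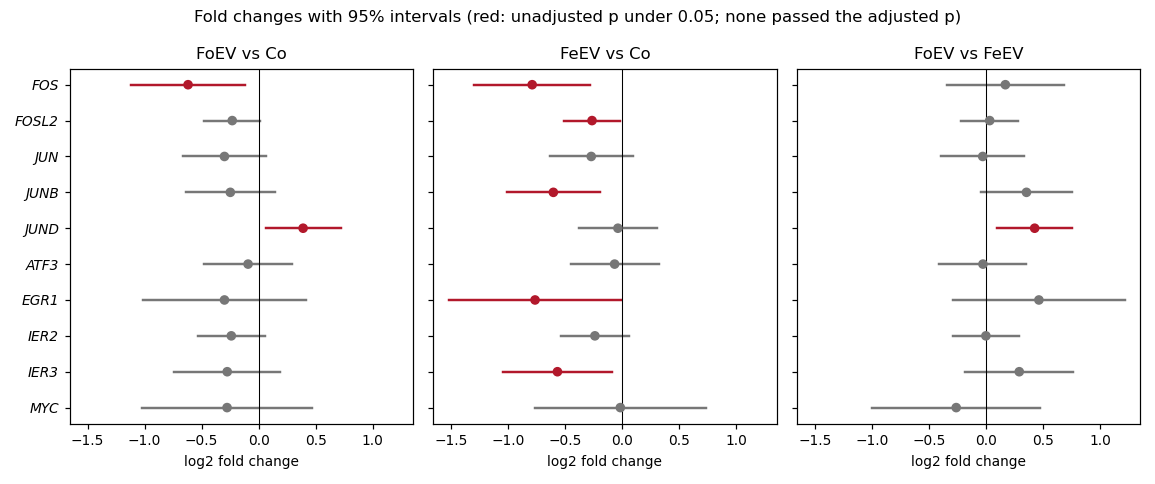
Log2 fold change of each gene (horizontal axis) with its 95% interval in the 3 comparisons, from the edgeR fit over 15 libraries. Red marks an unadjusted p under 0.05, found for FOS and JUND in FoEV vs Co, for FOS, FOSL2, JUNB, EGR1 and IER3 in FeEV vs Co, and for JUND in FoEV vs FeEV, and no adjusted p was under 0.05.

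The members differed in how far they varied between pools of 1 treatment. The biological coefficient of variation was 34.0% for MYC and 33.6% for EGR1, above that of 96.2% and 96.1% of all genes. It was 23.8% for FOS (percentile 85.9) and 22.2% for IER3 (percentile 82.4). ATF3, JUNB, JUN and JUND followed with 19.2%, 19.1%, 18.3% and 16.1%, IER2 had 14.6%, and FOSL2 was the steadiest member with 11.0% (percentile 16.9). Counting error alone gave 14.8% for EGR1 and 14.4% for MYC, the members with the fewest reads, and 7.51% to 11.9% for the other 8. JUND was uneven across treatments in this respect, whose CPM had a coefficient of variation of 32.3% in Co against 7.00% in FeEV and 11.3% in FoEV libraries, and the difference in spread was not tested.

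Part of this variation was shared between the members. Co replicate 1 was above the Co mean in 9 of 10 members, with a mean deviation of 0.41 on the log2 scale, and Co replicate 2 was above it in 1 of 10, with a mean deviation of -0.52. FoEV replicate 1 was above its treatment mean in 9 of 10 members (mean deviation 0.36) and FeEV replicate 1 in 8 of 10 (0.26). FeEV replicate 5 (-0.25, 2 of 10 above) and FoEV replicate 3 (-0.20, 3 of 10 above) were low. The libraries that set the Co mean of one gene therefore often set that of another.

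**Figure D4:**
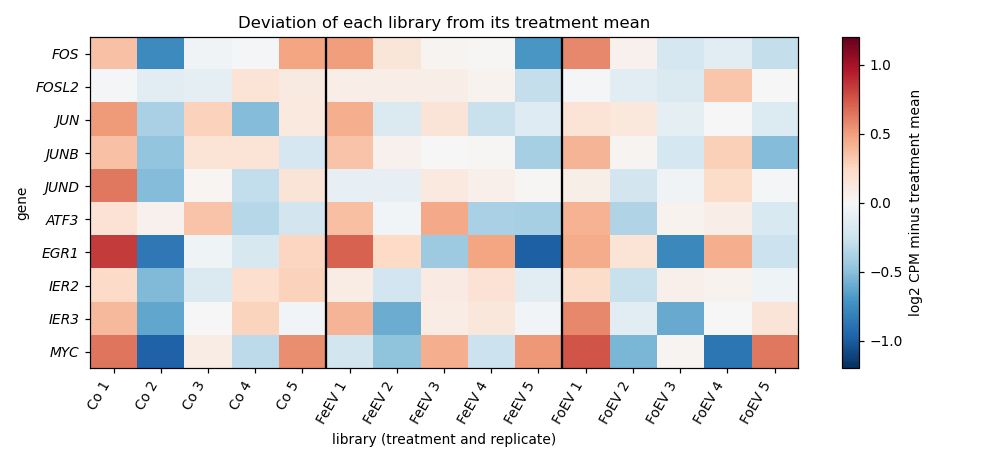
Deviation of log2 CPM from the treatment mean for each gene (rows) in each library (columns, by treatment and replicate), on a colour scale in log2 units. Co replicate 1 is above its mean in 9 of 10 genes and Co replicate 2 in 1 of 10.

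Correlations were computed over the deviations of log2 CPM from the treatment means in 15 libraries, for all 45 pairs of members, with two-sided permutation tests within treatments. Of the 45 pairs, 43 had a positive Pearson r, with a median of 0.476, whereas 49.9% were positive over all pairs of genes tested. FOS and EGR1 varied together (r = 0.823, permutation p = 0.00064, adjusted over the 45 pairs 0.0288), with a Spearman rho of 0.768 (permutation p = 0.00194) and an r of 0.643 without the 2 libraries farthest from the median of FOS. JUNB and EGR1 did so as well (r = 0.775, permutation p = 0.0014, adjusted 0.0315), with a rho of 0.764 (permutation p = 0.00154) and an r of 0.778 without the 2 libraries farthest from the median of JUNB. For FOS and JUNB, r was 0.740 (permutation p = 0.00369, adjusted 0.0553). The negative values were those of MYC with FOSL2 (r = -0.252) and with JUNB (r = -0.0268).

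The number of pairs with an adjusted p under 0.05 was 2, and 0 with a block on the replicate numbers of the titles. It was 0 without Co replicate 2, FeEV replicate 1 or FeEV replicate 5, 1 without Co replicate 1, FeEV replicate 3, FoEV replicate 1 or FoEV replicate 2, 4 without FoEV replicate 4 and 6 without FeEV replicate 2. Within single treatments, 40 of 45 pairs were positive in Co, 35 in FeEV and 37 in FoEV. FOS and JUND, the members with opposite estimates in FoEV treatment vs. Co, had an r of 0.453 within treatments (rho = 0.307, permutation p = 0.165 for r). Taken singly, the Co libraries gave an r of 0.814, the FeEV libraries -0.424 and the FoEV libraries 0.0876, each over 5 values. No member was correlated with the library total at an adjusted p under 0.05 over 10 relations. MYC had the smallest p, with an r of 0.479 and a rho of 0.661 (permutation p = 0.0192 and 0.00654, adjusted p of r 0.192). Its r was 0.485 without the 2 libraries farthest from the median. JUN had an r of 0.356 and a rho of 0.657 (permutation p = 0.198 and 0.0125). FOSL2 had an r of -0.525 and a rho of -0.439 (permutation p = 0.0704 and 0.123).

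**Figure D5:**
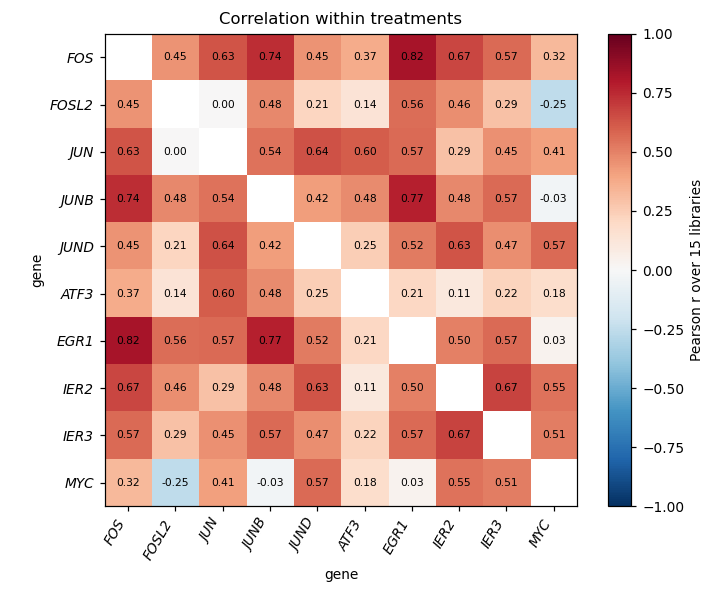
Pearson r between the genes over deviations of log2 CPM from the treatment means in 15 libraries, with the value written in each cell. FOS, JUNB and EGR1 form the pairs with the highest values, 0.82, 0.77 and 0.74, and FOSL2 with MYC has the lowest, -0.25.

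The genes of the whole table most like FOS over these 15 deviations were ARHGEF5 (r = 0.867), TNFRSF12A (r = 0.860), IL10RB (r = 0.855), CDR2L (r = 0.828) and NEFM (r = 0.826). EGR1 ranked 7 and JUNB 25 among all genes by likeness to FOS, IER2 ranked 95 and MYC 1617. These ranks are a description over libraries that also differ in depth.

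Other immediate early genes mostly had lower estimates in FeEV-treated embryos. Of 54 listed, 39 were in the filtered table. In FeEV treatment vs. Co, 34 of these had a lower estimate, against 49.0% of all genes. Their log2 fold changes had a median of -0.18, against 0.00 over all genes. In this comparison 7 had an unadjusted p under 0.05 as lower, against 2.32% of all genes. None had such a p as higher, against 1.83% of all genes. The leading genes were PPP1R15A, a regulator of eIF2α dephosphorylation, with -0.66 ± 0.20, the kinase gene SGK1 with -0.38 ± 0.12 and the matricellular gene CCN1 with -0.74 ± 0.24. CSRNP1 had -0.48 ± 0.17 and NFKBIZ, a regulator of NF-κB, had -0.68 ± 0.30, and the remaining 2 were PLK2 and ID2.

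FoEV-treated embryos had lower estimates than Co for 24 of the 39 genes, against 47.7% of all genes. The median was -0.10, against 0.01 over all genes. An unadjusted p under 0.05 was found for 5, a share no larger than the 15.1% of all genes. Those lower were SGK1 with -0.44 ± 0.12 (adjusted p = 0.126 in edgeR), the survival gene MCL1 with -0.27 ± 0.07 (adjusted p = 0.131 in edgeR), PPP1R15A with -0.50 ± 0.19 and CCN1 with -0.55 ± 0.23. KLF2, a zinc finger factor, was the higher gene with an unadjusted p under 0.05, at 9.36 ± 3.85 CPM (SD, n = 5) under FoEV treatment against 4.96 ± 2.17 in Co, and its log2 fold change was 0.93 ± 0.34. Against FeEV, 30 of the 39 FoEV estimates were higher, a sign that 51.8% of all genes had, but none with an unadjusted p under 0.05. MCL1 was lower with -0.16 ± 0.07, against 3.69% of all genes with an unadjusted p under 0.05 as lower. The study named some of these genes from the same libraries, so the counts are not independent of it.

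Among 19 other AP-1 and dimer partner genes in the table, the estimates were split. In FoEV treatment vs. Co 10 were higher and 9 lower, and in FeEV treatment vs. Co 8 were higher and 11 lower. Of all genes, 47.7% and 49.0% were lower in these comparisons. An unadjusted p under 0.05 in FoEV treatment vs. Co was found for 4 of the 19, against 15.1% of all genes. ATF2, which pairs with JUN at cAMP-type elements, had the smallest p, at 55.7 ± 8.44 CPM (SD, n = 5) under FoEV treatment against 75.8 ± 5.79 in Co. Its log2 fold change was -0.45 ± 0.12 (edgeR, unadjusted p = 0.000986, adjusted p = 0.118). NFE2L2, the factor of antioxidant genes, had -0.24 ± 0.11, while JDP2, an AP-1 repressor, had 0.35 ± 0.16 and ATF4, the factor of the integrated stress response, had 0.32 ± 0.15. No gene of this list had an unadjusted p under 0.05 in the other comparisons. FOSB was below the filter with 2 to 11 counts per library, 44 in all Co, 22 in all FeEV and 39 in all FoEV libraries. These sums were not scaled to depth, and every FoEV library had more reads than every Co library. BATF was at 0 in all 15 libraries.

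The genes upstream of the members showed few differences. Of 13 SRF, TCF and CREB factor genes, 5 were higher and 8 lower in FoEV treatment vs. Co, where 47.7% of all genes were lower. Among them were MRTFB, a coactivator of SRF, with -0.26 ± 0.10 and ELK4, an SRF partner, with 0.46 ± 0.19. These 2 had an unadjusted p under 0.05, against 15.1% of all genes. In FeEV treatment vs. Co the split was also 5 and 8, with no unadjusted p under 0.05. Of 31 ERK cascade genes, 20 were lower in FoEV treatment vs. Co and 21 in FeEV treatment vs. Co, against 47.7% and 49.0% of all genes. An unadjusted p under 0.05 was found for 4 in FoEV treatment vs. Co, again no larger a share than the 15.1% of all genes, and for none in FeEV treatment vs. Co. Against Co, in FoEV treatment, the GTPase gene NRAS had -0.25 ± 0.08, SPRED1, an inhibitor of RAS signalling, had -0.23 ± 0.11, and the kinase gene ARAF had 0.34 ± 0.13. In FoEV vs. FeEV treatment, 4 had an unadjusted p under 0.05, against 8.52% of all genes. There NRAS had -0.28 ± 0.08 and RASA1, which turns RAS off, -0.20 ± 0.10, whereas the adaptor gene GRB2 had 0.33 ± 0.12. None of these passed the adjusted threshold.

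Of 22 genes that act in the decay of AU-rich mRNAs, 16 were lower in FoEV treatment vs. Co and 10 in FeEV treatment vs. Co. Of all genes, 47.7% and 49.0% were lower in these comparisons. In FoEV treatment vs. Co 3 of the 22 had an unadjusted p under 0.05, no larger a share than the 15.1% of all genes. The decapping gene DCP1A had -0.30 ± 0.10, the deadenylase gene CNOT7 -0.21 ± 0.09 and the exonuclease gene XRN1 -0.25 ± 0.11 in FoEV treatment vs. Co. FoEV vs. FeEV treatment also had 16 lower, against 5223 of all 10832 genes, with CNOT6 at -0.31 ± 0.09 and CNOT7 at -0.23 ± 0.09. These 2 had an unadjusted p under 0.05, against 8.52% of all genes. Among 18 genes of the MYC network, 12 were higher in FoEV treatment vs. Co, against 5665 of all 10832 genes. An unadjusted p under 0.05 was found for 2 of the 18 in FoEV treatment vs. Co and for 2 in FoEV vs. FeEV treatment, against 15.1% and 8.52% of all genes. ZBTB17, which encodes the MYC partner MIZ1, had 27.1 ± 5.54 CPM (SD, n = 5) under FoEV treatment against 17.2 ± 2.63 in Co, with a log2 fold change of 0.64 ± 0.16 (edgeR, unadjusted p = 0.000518, adjusted p = 0.0943). MLXIP had 0.24 ± 0.10 in FoEV treatment vs. Co, and in FoEV vs. FeEV treatment MAX, the dimer partner of MYC, had 0.33 ± 0.14 and ZBTB17 0.33 ± 0.15.

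Of 34 genes known as AP-1 targets, 19 were in the table. An unadjusted p under 0.05 was found for 6 of them in FoEV treatment vs. Co, against 15.1% of all genes. It was found for 1 in FeEV treatment vs. Co and for 3 in FoEV vs. FeEV treatment, against 4.15% and 8.52% of all genes. In FeEV treatment vs. Co 14 were lower and 5 higher, and in FoEV treatment vs. Co 11 were lower and 8 higher. Of all genes, 49.0% and 47.7% were lower in these comparisons. THBS1, the gene of the matrix protein thrombospondin 1, was lower in both, with -0.89 ± 0.34 in FeEV and -0.91 ± 0.33 in FoEV treatment vs. Co. In FoEV treatment vs. Co the integrin genes ITGAV and ITGA5 had -0.33 ± 0.12 and 0.21 ± 0.07, and the proapoptotic gene BCL2L11 had -0.41 ± 0.16. KRT18, a keratin gene that is also a trophectoderm marker, had 0.55 ± 0.13 (edgeR, unadjusted p = 0.000347, adjusted p = 0.0818). FoEV estimates were above FeEV for 13 genes, a sign that 51.8% of all genes had. TGFB1 had 0.63 ± 0.24 and KRT18 0.29 ± 0.13, while BCL2L11 had -0.33 ± 0.16.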

How the data were processed

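Sequencing libraries of total RNA from bovine blastocyst pools comprised 5 of Co, 5 of FeEV and 5 of FoEV treatment, as their titles state. The authors deposited raw read counts per gene, mapped to ARS-UCD1.2 (bosTau9), for all genes and for the 10832 kept by their filter. The processing notes list Trim Galore 0.4.3.1, HISAT2 2.1.0 and featureCounts 1.6.3, whereas the methods name QuasR Qcount as the counter. The labels give 7 days of culture, and the methods give another duration.

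The filtered counts were scaled by TMM and tested by quasi-likelihood F in edgeR 4.0.16 (glmQLFit, robust=TRUE) in R 4.3.3, with treatment as the only factor, 3 contrasts and Benjamini-Hochberg adjustment over all genes at 0.05. SEs are the log2 fold change over the root of F, and intervals are 95% t intervals. Log2 CPM used a prior count of 2. Correlations used 100000 permutations within treatments. DESeq2 1.42.0, other filters, scalings, blocks and leaving out each library were alternatives. The p-values of the fit set a difference between treatments against the spread between embryo pools, and those of the permutations concern a correlation within treatments. All 10 members, and 10709 of 10832 genes, matched a gene name in RefSeq by identifier. That table is of another assembly, so no positions or lengths were used, and levels were not compared between genes.

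The members and gene lists were chosen with earlier results of these data known. Every member is reported. From each other list, genes with an unadjusted p under 0.05 are named, at most 5 per comparison by p, except for a gene that is not reported here. PLK2 and ID2 were added after their values were seen. The 5 genes nearest to FOS are named by their likeness to FOS.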

Additional observations from a re-analysis of the deposited data

Results flagged for a closer look

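A library far from the other 4 of its treatment was found in 2 of 30 sets of 5 values, 1 for each gene and treatment, and chance gives about 1 in 20. Both were of FOSL2. FeEV replicate 5 had 31.8 CPM, and its gap to the nearest library was 0.872 of the whole range of FeEV. FoEV replicate 4 had 50.1 CPM, with a gap of 0.712 of the range of FoEV, barely past the critical value for 5 samples. FeEV replicate 5 was also the lowest FeEV library for FOS, JUNB and EGR1, and FoEV replicate 4 the highest FoEV library for JUND.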

How the results depend on the processing

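The number of genes with an adjusted p under 0.05 in FoEV treatment vs. Co, 1 in the reported fit, was 138 with DESeq2, 311 with the robust dispersion and likelihood ratio test, 173 without a filter on low counts, 5 with only the groups compared, and 57 or 12 with a replicate block of the title or library numbers. Leaving out each library gave 0 to 58. In FeEV treatment vs. Co it was 0, and 1, 6 and 13 with DESeq2, the likelihood ratio test and no filter, and 0 to 1 leaving out libraries, with 449 genes at an unadjusted p under 0.05. In FoEV vs. FeEV treatment it was 0, and 3, 31 and 22 in the same order, 1 with the library number block, and 0 to 1 leaving out libraries, with 923 genes at an unadjusted p under 0.05. Correlated pairs of members numbered 2, 0 with the replicate block of the titles (13 and 5 at an unadjusted p under 0.05), and 0 to 6 leaving out libraries. The cause was not tested.

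FOS passed the adjusted threshold with the likelihood ratio test in FoEV treatment vs. Co, and without a filter in both oEV treatments vs. Co (-0.79, adjusted p = 0.0017 in edgeR for FeEV); no other member passed it in any setting. Estimates near 0 turned sign. In FoEV vs. FeEV treatment, FOSL2 was -0.026 and ATF3 0.066 with the library number block, and JUN was 0.0095 with the likelihood ratio test. IER2 was -0.0035 with RLE, -0.0036 with DESeq2 or the looser filter, -0.0083 without a filter, -4.7e-05 with only the groups compared, -0.088 with the library number block and -0.0029 without the 50 most counted genes. In FeEV treatment vs. Co, JUND was 0.045 with the likelihood ratio test and 0.23 with the library number block, and MYC was 0.00053 with the title block. In FoEV treatment vs. Co, ATF3 was 0.049 and EGR1 0.065 with the library number block. Leaving out libraries, estimates that turned sign ran from -0.012 to 0.32 for FOS, -0.055 to 0.072 for FOSL2, -0.087 to 0.10 for JUN, -0.15 to 0.10 for ATF3 and -0.062 to 0.064 for IER2 in FoEV vs. FeEV treatment. They ran from -0.16 to 0.16 for JUND, -0.19 to 0.031 for ATF3 and -0.21 to 0.16 for MYC in FeEV treatment vs. Co, and from -0.22 to 0.0013 for ATF3 in FoEV treatment vs. Co.

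Whether the replicate numbers pair the samples could not be settled from correlations between libraries. Those with the same title number had a mean r of 0.119 (-0.291 to 0.441, over 0.1 in 7 of 15 pairs), others -0.0297. For the same title number it was 0.186 between FeEV and FoEV (0.0134 to 0.441), 0.138 between Co and FeEV (-0.214 to 0.420) and 0.0343 between Co and FoEV (-0.291 to 0.347). The library numbers of the descriptions gave a mean r of 0.081 for the same number and -0.0123 for others. With 17 to 85 reads on EGR1 and 19 to 90 on MYC per library, counting error added to a larger spread between pools, and differences within their intervals could not be shown with these libraries. In FeEV treatment vs. Co, the library number block left an unadjusted p under 0.05 for FOS (-0.61, unadjusted p = 0.0347 in edgeR) but not for JUNB (-0.43, unadjusted p = 0.0526), FOSL2 (-0.19, unadjusted p = 0.198), IER3 (-0.49, unadjusted p = 0.171) or EGR1 (-0.33, unadjusted p = 0.365), over 555 genes in place of 449, whereas the title block kept all 5. The same block gave -0.06 and -0.05 for JUN in FoEV and FeEV treatment vs. Co, and -0.51 (unadjusted p = 0.0658 in edgeR) for FOS in FoEV treatment vs. Co.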
